A study of Mus musculus with 12 samples.

Results

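Transcript levels of 10 transcription factors that act in endothelial cells were followed in RNA-seq of bone endothelial cells (BECs). The genes were Sox7, Sox17 and Sox18 of the SoxF group, Erg, Fli1 and Ets1 of the ETS family, the haematopoietic and endothelial regulators Tal1 and Gata2, the repressor Bcl6b and the MADS-box factor Mef2c. They were taken from a given list of symbols and matched by Ensembl ID, and all 10 were found among the 37620 genes of the count table. Freshly isolated BECs of c57/Bl6 mice, an inbred laboratory strain, had been sorted by endomucin, a surface protein of bone capillaries, and per the labels came from tibia. Female and male mice of 2 or 65 weeks gave 4 groups (F.2weeks, M.2weeks, F.65weeks and M.65weeks) of 3 libraries each, and the labels name no transgene, engineered allele or treatment in any group. The labels do not say whether the 3 libraries of a group came from separate animals, so the p-values measure the spread between these libraries, and per the methods of the study samples had been chosen by RNA quality.

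SoxF proteins bind DNA through an HMG box and act in vessel formation, arterial and venous identity and lymphatic development, where they partly replace each other. ETS factors recognise a short GGAA core that is found in many endothelial enhancers, and Erg and Fli1 hold endothelial genes active. Tal1 and Gata2 work together in the precursors of blood and endothelium, and both remain active in blood cells of the marrow, so their transcripts in a bone preparation need not come from endothelium.

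Total counts per library ran from 35012947 to 44569600 at 2 weeks and from 26044743 to 34088694 at 65 weeks, so a low transcript was measured with fewer counts at 65 weeks. The cell type label was compared with 12 endothelial markers, among them Cdh5, Kdr, Tek and Emcn. None of the 12 was at 0 in any library. Their summed level, in CPM (counts scaled to a common library total), was 2101 to 3567 CPM in F.2weeks and 3065 to 3891 CPM in M.2weeks. It was only 181 to 232 CPM in F.65weeks and 124 to 164 CPM in M.65weeks, and all 12 markers were lower at 65 weeks in both sexes (edgeR adjusted p under 0.05). Emcn, the transcript of the protein used for sorting, had a mean of 147 CPM in F.2weeks, 197 CPM in M.2weeks, 5.0 CPM in F.65weeks and 5.64 CPM in M.65weeks. In bulk RNA of this kind, fewer cells of a type and less RNA per cell cannot be told apart. Male 65-week replicate 3 stood apart from the other 2 libraries of its group: its 8 B cell markers summed to 1508 CPM against 491 and 378 CPM, and it held 117 counts of Xist, the transcript of the inactive X chromosome, against 3 and 0. Tests of the factors by age in males, by sex at 65 weeks and for the interaction of sex and age are given with and without it. The order of the factors by level, the genes most alike in pattern, some ratios to markers and most list counts are given with it only.

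Comparisons of age used the 6 libraries of each sex. In females 8 of the 10 factors differed between 2 and 65 weeks, 6 lower and 2 higher at 65 weeks (edgeR quasi-likelihood test, Benjamini-Hochberg adjusted over all genes tested). In males 6 differed, all lower and the same 6 genes: Sox7, Sox17, Sox18, Bcl6b, Erg and Ets1. Sox7 and Sox17 passed the filter on low counts through their 2-week libraries alone, so that a lower 65-week level was built into their being tested. Of the other 8 factors 4 were lower and 2 higher in females and 4 were lower in males, with a median log2 fold change of -0.59 in females and -0.87 in males. This was set against a wide background, since 59.7% of the 15120 genes tested in females differed with age (29.5% lower and 30.2% higher) and 55.5% of the 14959 tested in males (28.5% lower). The median log2 fold change over all 10 factors was -1.24 in females and -1.46 in males, beside 0.01 over all genes tested in each sex. The factors fell into 3 sets by the size of the difference, an order seen only after the values were known. Sox7, Sox17, Sox18 and Bcl6b fell by more than 8-fold in both sexes, as did 7% of genes in females and 7.98% in males. Erg and Ets1 fell 2.03-fold to 3.04-fold. Fli1, Tal1, Gata2 and Mef2c lay near their 2-week level with all libraries, but without male 65-week replicate 3 Mef2c was 1.84-fold and Gata2 1.70-fold lower in males.

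**Figure D1:**
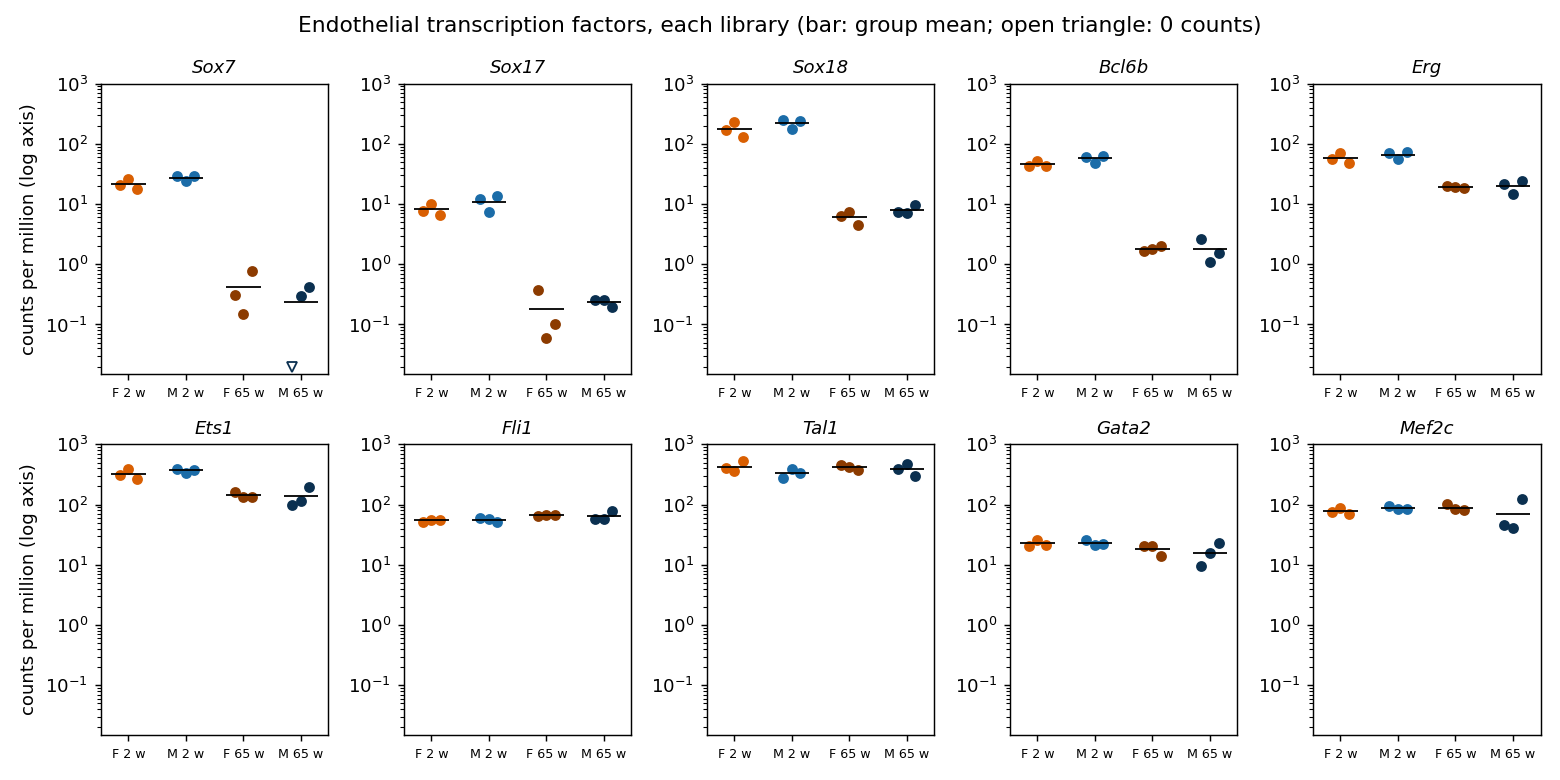
Level of each transcription factor in each of the 12 libraries, in CPM on a log axis shared by all panels, by sex (F, M) and age in weeks (w); points are libraries, bars are group means of 3 and the open triangle marks a library with 0 counts of Sox7. Sox7, Sox17, Sox18 and Bcl6b lie more than a decade lower at 65 weeks, Erg and Ets1 lie lower by less than a decade, and the 65-week points of Fli1, Tal1, Gata2 and Mef2c lie among or close to the 2-week points.

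Sox18 (ENSMUSG00000046470, GRCm39 chromosome 2, 181311629 to 181313438, minus strand), the SoxF gene with the highest level in every group, drives lymphatic and vascular differentiation. It was measured at 167, 227 and 132 CPM in F.2weeks and at 247, 174 and 236 CPM in M.2weeks. At 65 weeks it was 6.37, 7.30 and 4.50 CPM in females and 7.5, 7.15 and 9.60 CPM in males. Every 65-week library lay far below every 2-week library. The log2 fold change was -4.71 (SE 0.247, 26.1-fold lower, adjusted p = 3.82e-06) in females and -4.65 (SE 0.181, 25.1-fold lower, adjusted p = 1.47e-06) in males. These folds come from the edgeR fit and so differ slightly from ratios of CPM.

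Sox7 (ENSMUSG00000063060, chromosome 14, 64181006 to 64188352, plus strand) acts in the earliest endothelial precursors. Its level was 20.6, 26.5 and 17.6 CPM in F.2weeks and 29.2, 24.0 and 29.4 CPM in M.2weeks. It dropped to 0.310, 0.147 and 0.785 CPM in F.65weeks and to 0, 0.296 and 0.422 CPM in M.65weeks. Male 65-week replicate 1 had no count of Sox7, which at the depth of that library allows up to 0.110 CPM (3 counts, counting error only). The log2 fold change was -5.59 in females (SE 0.404, adjusted p = 1.51e-05) and -6.73 in males (SE 0.498, adjusted p = 2.42e-05), and the exact size is uncertain because the 65-week libraries held only 0 to 23 counts. It was -6.44 without female 65-week replicate 3 and -7.39 without male 65-week replicate 3, the highest libraries of their groups. Sox7 passed the filter on low counts through its 2-week libraries alone, so a lower 65-week level was built into its being tested.

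Sox17 (ENSMUSG00000025902, chromosome 1, 4561151 to 4567784, minus strand), which marks arterial endothelium, was the lowest of the 3 SoxF genes. It was read at 7.68, 10.1 and 6.66 CPM in F.2weeks and 12, 7.30 and 13.8 CPM in M.2weeks. The 65-week values were 0.379, 0.0587 and 0.102 CPM in females and 0.256, 0.259 and 0.192 CPM in males, from 2 to 11 counts a library. The ages did not overlap, and the log2 fold change was -5.38 (SE 0.474, adjusted p = 3.90e-05) in females and -5.40 (SE 0.355, adjusted p = 1.39e-05) in males. Without female 65-week replicate 1, the highest of its group, the female value of Sox17 was -6.49. Sox17 passed the filter on low counts through its 2-week libraries alone, so a lower 65-week level was built into its being tested.

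The balance among the SoxF genes was read per length of transcript, as RPKM (counts scaled by the library total and by the kilobases of exon). Sox18 made up 93.6 ± 0.411% of the summed SoxF level in F.2weeks and 93.4 ± 0.309% in M.2weeks (SD, n = 3 each). It made up 95.8 ± 3.30% in F.65weeks and 97.9 ± 0.954% in M.65weeks. Sox7 contributed 5.09% and Sox17 1.34% in F.2weeks, so the transcript that dominated the group at 2 weeks also dominated what remained at 65 weeks.

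Bcl6b (ENSMUSG00000000317, chromosome 11, 70113871 to 70120624, minus strand) encodes a zinc finger repressor related to Bcl6 that is found in endothelium. It was measured at 43.0, 52.7 and 42.6 CPM in F.2weeks and 61.1, 48.7 and 63.5 CPM in M.2weeks. At 65 weeks it was 1.65, 1.76 and 1.98 CPM in females and 2.64, 1.11 and 1.54 CPM in males. The separation was complete, with a log2 fold change of -4.54 (SE 0.131, 23.3-fold lower, adjusted p = 8.49e-07) in females and -4.91 (SE 0.304, 30.0-fold lower, adjusted p = 1.05e-05) in males.

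Erg (ENSMUSG00000040732, chromosome 16, 95160028 to 95387452, minus strand) encodes the ETS factor most closely tied to endothelial identity. Its level was 56.6, 71.8 and 47.8 CPM in F.2weeks and 70.7, 56.1 and 72.7 CPM in M.2weeks. It was 20, 19.3 and 18.6 CPM in F.65weeks and 21.5, 14.9 and 24.4 CPM in M.65weeks. Again no 65-week library reached a 2-week library. The log2 fold change was -1.47 in females (SE 0.133, 2.76-fold lower, 95% interval -1.77 to -1.16, adjusted p = 4.51e-05) and -1.60 in males (SE 0.186, 3.04-fold lower, adjusted p = 0.000247). The interval for Sox18 in females ran from -5.28 to -4.14 and did not reach that of Erg.

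Ets1 (ENSMUSG00000032035, chromosome 9, 32547517 to 32669116, plus strand) is used in endothelium and also in lymphocytes. It was measured at 313, 395 and 264 CPM in F.2weeks and 397, 330 and 380 CPM in M.2weeks. At 65 weeks the values were 163, 136 and 136 CPM in females and 98.6, 115 and 199 CPM in males. Ets1 fell 2.03-fold in females (log2 fold change -1.02, SE 0.140, adjusted p = 0.000421) and 2.50-fold in males (log2 fold change -1.32, SE 0.230, adjusted p = 0.00198). In males the highest 65-week value was that of replicate 3, and without it the fall was 3.17-fold.

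Fli1 (ENSMUSG00000016087, chromosome 9, 32333500 to 32454157, minus strand) is the closest relative of Erg and is also active in megakaryocytes and other blood cells. It lies 93359 bp from Ets1 on the same chromosome, where Ets1 lay lower at 65 weeks. Fli1 was 51.7, 56.4 and 55.9 CPM in F.2weeks and 64.6, 67.5 and 66.2 CPM in F.65weeks. Every old female library was thus above every young one, and the rise was small (log2 fold change 0.41, SE 0.0728, adjusted p = 0.00169). In males it was 60.2, 58.4 and 50.6 CPM at 2 weeks and 58.0, 57.0 and 77.8 CPM at 65 weeks. The male groups overlapped and the difference did not pass the test (log2 fold change 0.30, SE 0.130, adjusted p = 0.0839, 95% interval -0.00225 to 0.60).

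Tal1 (ENSMUSG00000028717, chromosome 4, 114913623 to 114928952, plus strand) encodes a basic helix-loop-helix factor required for blood and for embryonic endothelium, and remains active in erythroid cells. It was read at 404, 355 and 523 CPM in F.2weeks and 458, 419 and 376 CPM in F.65weeks. In males it was 280, 388 and 334 CPM at 2 weeks and 393, 470 and 296 CPM at 65 weeks. The ages overlapped in both sexes. The log2 fold change was 0.10 (95% interval -0.27 to 0.46, adjusted p = 0.617) in females and 0.33 (95% interval -0.14 to 0.81, adjusted p = 0.199) in males, so a fall of the size seen for Erg lay outside both intervals. With library totals in place of TMM scaling the value in females was -0.03, a change that also moved the median of all genes from 0.01 to -0.13.

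Gata2 (ENSMUSG00000015053, chromosome 6, 88170559 to 88184018, plus strand), a zinc finger factor of blood progenitors, mast cells and endothelium, was 20.7, 26.3 and 21.0 CPM in F.2weeks and 20.5, 20.7 and 14.3 CPM in F.65weeks. In males it was 25.6, 21.1 and 22.4 CPM at 2 weeks and 9.41, 15.5 and 23.0 CPM at 65 weeks. The old male libraries were the most scattered. Neither difference passed the test (log2 fold change -0.15, adjusted p = 0.442, 95% interval -0.53 to 0.22 in females and -0.43, adjusted p = 0.209, 95% interval -1.05 to 0.20 in males).

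Mef2c (ENSMUSG00000005583, chromosome 13, 83652064 to 83815555, plus strand) acts downstream of growth signals in endothelium and muscle and is also used by B cells. It was measured at 76.2, 89.4 and 69.2 CPM in F.2weeks and 102, 84.7 and 81.6 CPM in F.65weeks. The female ages overlapped, and a log2 fold change of 0.33 just passed the threshold (SE 0.115, adjusted p = 0.0360). It passed in 5 of 15 alternative settings, with adjusted p up to 0.389. The call was lost with DESeq2 (adjusted p = 0.0742) and without female 2-week replicate 1 or 3 or female 65-week replicate 1 or 2 (log2 fold change 0.26, 0.19, 0.23 and 0.36, edgeR adjusted p = 0.198, 0.230, 0.113 and 0.0568). In males it was 94.6, 85.3 and 83.7 CPM at 2 weeks and 46.2, 41.1 and 122 CPM at 65 weeks, with a log2 fold change of -0.24 (SE 0.360, adjusted p = 0.600). The male value turned on replicate 3 of 65 weeks, the highest of all 12 libraries.

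**Figure D2:**
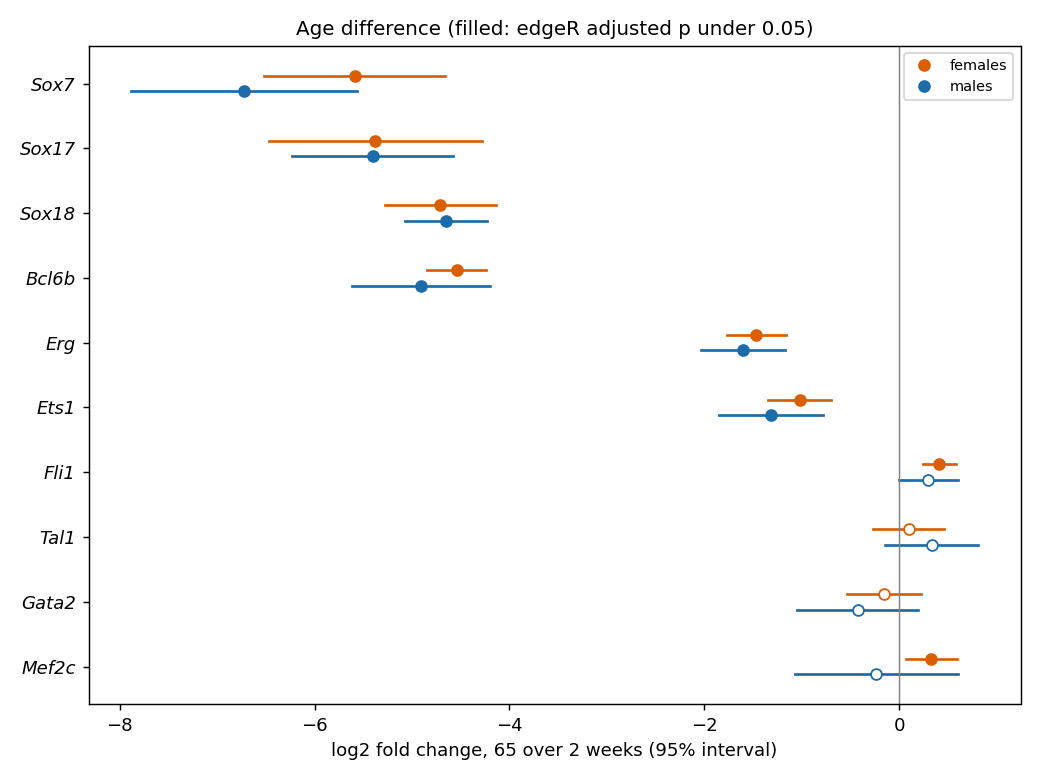
Log2 fold change of each transcription factor, 65 over 2 weeks, in females and males, with 95% intervals from the edgeR fit of 6 libraries; filled points passed an adjusted p of 0.05. The intervals of Sox7, Sox17, Sox18 and Bcl6b lie below -4, those of Erg and Ets1 between -2.03 and -0.70, and those of Tal1 and Gata2 span 0. Sox7 and Sox17 passed the filter on low counts through their 2-week libraries alone, so a lower 65-week level was built in for them.

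Promoter sequence was at hand for 4 of the 10 genes, in windows of 300 bases (250 before to 50 after a start site) from RefSeq on GRCm38.p6, a build other than that of the gene positions above. Erg and Mef2c had 3 windows each and Tal1 and Gata2 had 2. Sox7, Sox17, Sox18, Fli1, Bcl6b and Ets1 were not matched. The ETS word AGGAA, on either strand, was found in 6 of the 10 windows and in 66.7% of all 32851 mouse windows. The GATA word GATAA, on either strand, was found in 3 of the 10 windows and in 25.4% of all. These 3 also held the ETS word, and 18% of all windows held both. The 3 windows are shown because they held both words, whatever the level of their gene. They belong to a factor that fell (Erg) and to factors that did not fall in both sexes (Tal1 and Mef2c). Capitals mark the ETS word and the GATA word in either orientation.
Erg (chr16:95459299-95459598, GRCm38.p6, minus strand): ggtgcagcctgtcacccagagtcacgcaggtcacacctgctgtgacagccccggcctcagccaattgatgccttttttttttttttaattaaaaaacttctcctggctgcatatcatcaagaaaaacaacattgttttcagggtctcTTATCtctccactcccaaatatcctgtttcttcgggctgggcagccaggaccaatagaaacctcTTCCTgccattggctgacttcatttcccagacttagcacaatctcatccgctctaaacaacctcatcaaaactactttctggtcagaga
Tal1 (chr4:115056176-115056475, GRCm38.p6, plus strand): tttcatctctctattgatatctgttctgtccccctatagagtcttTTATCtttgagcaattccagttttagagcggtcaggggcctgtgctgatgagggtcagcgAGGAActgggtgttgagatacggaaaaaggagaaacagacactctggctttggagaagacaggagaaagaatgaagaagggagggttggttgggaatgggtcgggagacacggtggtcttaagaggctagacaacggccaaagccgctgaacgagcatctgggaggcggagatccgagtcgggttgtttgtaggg
Mef2c (chr13:83523406-83523705, GRCm38.p6, plus strand): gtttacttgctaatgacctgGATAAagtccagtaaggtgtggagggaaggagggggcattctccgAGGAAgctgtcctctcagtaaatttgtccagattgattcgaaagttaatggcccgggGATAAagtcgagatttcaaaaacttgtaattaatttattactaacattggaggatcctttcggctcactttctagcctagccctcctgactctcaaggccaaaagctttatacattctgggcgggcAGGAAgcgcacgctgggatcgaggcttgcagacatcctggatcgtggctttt

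The Erg window held 1 ETS word and 1 GATA word, as did the Tal1 window, and the Mef2c window held 2 of each. The E-box CANNTG was found 2 times in the Erg window, 1 time in the Tal1 window and not in that of Mef2c, beside 72.3% of all windows with at least 1. The SOX word ACAAT was found 2 times in the Erg window and in 31% of all windows. Words were counted on their own even where they overlapped. A match describes the letters alone, and which start site was used in these cells was not measured.

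Without male 65-week replicate 3, 9 of the 10 factors differed with age in males, as did 62% of the genes tested. Mef2c then fell by 0.88 on the log2 scale (SE 0.106, adjusted p = 0.000264) and Gata2 fell by 0.77 (SE 0.196, adjusted p = 0.0106), while Tal1 rose by 0.49 (SE 0.159, adjusted p = 0.0290). Fli1 was at 0.15 (adjusted p = 0.241). The 6 factors that had differed with all 6 libraries remained lower, with log2 fold changes from -7.39 for Sox7 to -1.66 for Ets1. Sox18, Bcl6b, Erg and Ets1 were also lower in every alternative setting tried, in both sexes.

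Libraries whose ages do not overlap were common among all genes, at 69.2% in females and 65.4% in males. Among the factors this held in females for Sox7, Sox17, Sox18, Bcl6b, Erg, Ets1 and Fli1, and in males for the first 6 of these. For Sox7 and Sox17 only the young libraries passed the filter on low counts, in both sexes. A lower level in the old libraries was thus built into their being tested, so they cannot be weighed against the shares of all genes.

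The levels of the genes were ordered per length of exon. In F.2weeks Sox18 stood highest at 108 ± 29.6 RPKM, next to Tal1 at 83.4 ± 16.9 RPKM, and the libraries of these neighbours overlapped. Ets1 followed at 38.2 ± 7.79 RPKM, Erg at 16.9 ± 3.49 RPKM and Fli1 at 12.5 ± 0.590 RPKM (SD, n = 3), each apart from the next. Bcl6b was at 8.67 RPKM, Sox7 at 5.80 RPKM, Mef2c at 4.57 RPKM, Gata2 at 2.82 RPKM and Sox17 at 1.53 RPKM, and of these Sox7 and Mef2c overlapped. In M.2weeks the order was the same, with Sox18 at 135 ± 24.2 RPKM clear of Tal1 at 65.2 ± 10.6 RPKM, and only Fli1 and Bcl6b overlapping among neighbours.

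At 65 weeks the order had changed. Tal1 was the highest in both sexes, at 81.6 ± 8.03 RPKM in females and 75.5 ± 17.0 RPKM in males, and clear of the gene below it. Ets1 came next at 17.1 ± 1.85 RPKM in females and 16.2 ± 6.37 RPKM in males, then Fli1 at 15.1 ± 0.329 RPKM and 14.7 ± 2.69 RPKM, with Ets1 and Fli1 overlapping in males only. Erg, Mef2c, Sox18 and Gata2 lay between 1.99 and 5.83 RPKM. In females Erg and Mef2c overlapped, and in males each of these 4 overlapped its neighbour. Sox18 had moved from the top of the order to rank 6 in females and rank 5 in males. Bcl6b was at 0.338 RPKM in females and 0.331 RPKM in males, and Sox7 and Sox17 were lowest and overlapped. With the length of the longest transcript in place of all exons, 3 or 4 of the 10 genes changed rank in each group.

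Levels were also set against the geometric mean of the 12 endothelial markers in the same library, which itself was 18.5-fold lower at 65 weeks in females and 27.2-fold lower in males. In females the ratio of Sox18 to this mean was 0.840 to 0.905 at 2 weeks and 0.454 to 0.652 at 65 weeks, 0.643 times its 2-week value and with no overlap of the ages (0.489 times against the sum of the markers). The male ratio was 0.803 to 0.898 at 2 weeks and 0.842 to 0.916 at 65 weeks, 1.01 times its 2-week value, and the ages overlapped. Sox18 itself fell 26.1-fold in females and 25.1-fold in males, so the sexes differed more in the marker mean than in Sox18. All 12 markers fell more in males (none called). Pecam1, the marker with the smallest fall, had a mean of 87.9 CPM in F.65weeks and 41.2 CPM in M.65weeks, where the marker sums had means of 198 and 138 CPM. The source of this sex difference was not tested. Bcl6b relative to the markers was 0.727 times its 2-week value in females, without overlap. The male value was 0.790 times, with overlap, since male 65-week replicate 1 (0.298) lay above every young male library.

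The ratios of Sox7 and Sox17 rest on few counts and moved with single libraries. Sox7 relative to the markers was 0.302 times its 2-week value in females (0.477 times without replicate 2 and 0.193 times without replicate 3 of F.65weeks). The male value of Sox7 was 0.135 times, a value set largely by replicate 1 of M.65weeks, which had 0 counts and entered through an offset of 0.5 counts: it was 0.362 times without that library, and 0.0854 and 0.0801 times without replicate 2 or 3. The ages did not overlap in either sex. Sox17 was at 0.347 times in females, where the ages overlapped (0.206 times without replicate 1 and 0.537 times without replicate 2 of F.65weeks), and at 0.644 times in males, where they did not. Leaving out single libraries in these ratios was chosen after the data were seen.

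The other factors were higher relative to the markers at 65 weeks than at 2 weeks. The ratio of Erg to the markers was 6.15 times its 2-week value in females and 8.16 times in males, and that of Ets1 8.34 and 9.70 times. It was 22.3 and 30.7 times for Fli1, 18.2 and 31.2 times for Tal1, 14.9 and 17.7 times for Gata2 and 21.1 and 19.0 times for Mef2c. Without male 65-week replicate 3 the male values were 7.84 times for Erg, 8.38 times for Ets1 and 29.6 times for Fli1. They were 37.6 times for Tal1, 15.2 times for Gata2 and 14.4 times for Mef2c. The ages did not overlap in this ratio for any of these 6 genes. The marker mean itself was 18.5-fold lower in females and 27.2-fold lower in males. A gene with an unchanged level therefore rises by about that much in this ratio. The share of all genes without overlap in this ratio was not computed. With the sum of the markers in place of their geometric mean the changes in females were smaller, 4.68 times for Erg and 17.0 times for Fli1, and in the same direction.

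**Figure D3:**
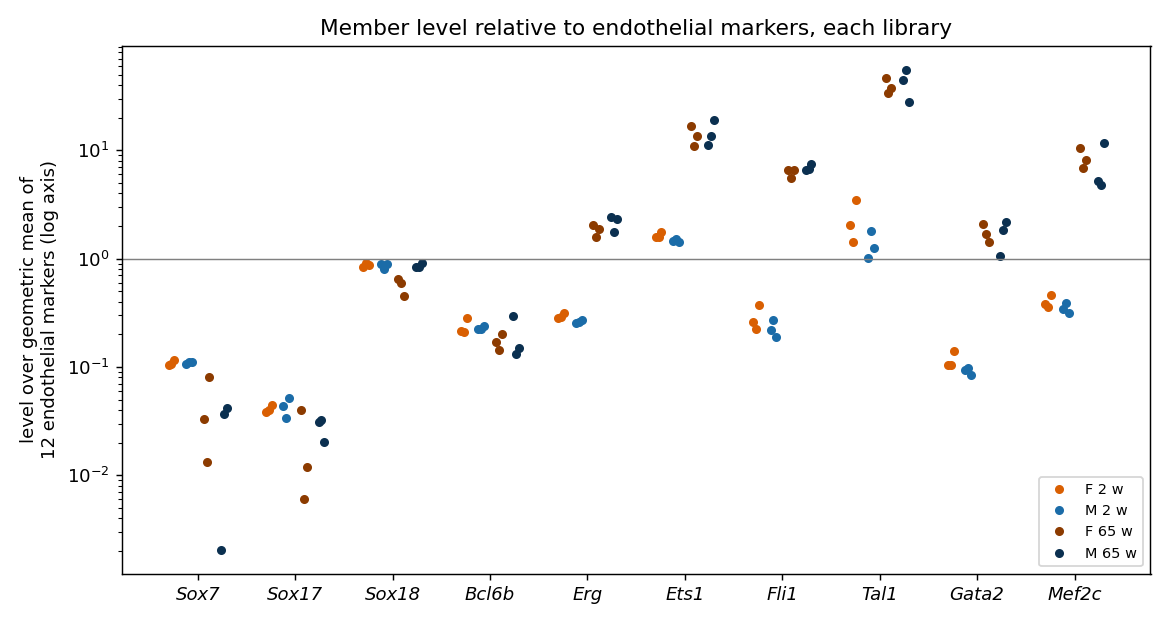
Level of each transcription factor divided by the geometric mean level of 12 endothelial markers in the same library, on a log axis; each point is a library and an offset of 0.5 counts stands in for 0. Sox18 lies between 0.454 and 0.916 in all 12 libraries, with the old female points below the young, while the 65-week points of Erg, Ets1, Fli1, Tal1, Gata2 and Mef2c lie above all their 2-week points.

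At 2 weeks several factors shared the highest or lowest library of a group with markers of particular cells, and at 65 weeks only some of them did. Female 2-week replicate 2 had the highest and replicate 3 the lowest level of Sox7, Sox17, Sox18, Bcl6b, Erg, Ets1 and Mef2c, and the endothelial marker sum had the same order (3567, 2830 and 2101 CPM in replicates 2, 1 and 3). Male 2-week replicate 2 was lowest for Sox7, Sox17, Sox18, Bcl6b, Erg, Ets1 and Gata2 and for the endothelial sum, at 3065 CPM. Tal1 went the other way at 2 weeks. It was highest in female replicate 3 and male replicate 2, where the sum of 8 erythroid markers was also highest in its group (27728 and 22024 CPM). In F.65weeks the endothelial sum was highest in replicate 2 (182, 232 and 181 CPM), as was Sox18, but Sox7 and Bcl6b were highest in replicate 3 and Sox17, Erg, Ets1 and Mef2c in replicate 1. In M.65weeks the sum was highest in replicate 3 (124, 126 and 164 CPM), as were Sox7, Sox18, Erg, Ets1 and Mef2c, but Bcl6b was highest in replicate 1. Tal1 was highest in female replicate 1 and male replicate 2 at 65 weeks, while the erythroid sum was highest in female replicate 2 (24776 CPM) and male replicate 1 (23844 CPM). The part of these cells in the levels was not tested.

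Markers of other cells changed with age as well, and markers of bone and stroma were lower alongside the endothelial genes. All 6 osteoblast, all 6 chondrocyte and all 6 stromal markers were lower at 65 weeks in both sexes. The osteoblast markers summed to 439 to 606 CPM at 2 weeks and 63.1 to 115 CPM at 65 weeks (median log2 fold change -5.23 in females and -4.99 in males). The chondrocyte markers summed to 299 to 546 CPM and 4.96 to 10.2 CPM (median -4.93 and -4.91), and Col10a1 was at 0 in all 3 old female libraries. The stromal markers summed to 4880 to 7820 CPM and 898 to 1513 CPM (median -2.31 and -3.05). These medians lay beside -4.22 and -4.51 for the 12 endothelial markers and the values of the SoxF genes and Bcl6b above. Of the osteoblast markers 3 in females and 1 in males passed the filter through their 2-week libraries alone. So did 4 of the 6 chondrocyte markers in each sex. A lower 65-week level of these was built into the counts and medians above.

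The 8 B cell markers summed to 250 to 345 CPM at 2 weeks, to 854 to 1204 CPM in F.65weeks and to 378 to 1508 CPM in M.65weeks, with 6 of 8 higher in each sex and none at 0. The 8 erythroid markers summed to 14354 to 27728 CPM at 2 weeks and 15325 to 24776 CPM at 65 weeks, with 1 of 8 higher in females and 2 of 8 in males. Without male 65-week replicate 3, 7 of the 8 erythroid markers were higher in males. In that fit 6 of the 8 B cell markers were higher in males and 2 were lower. The 7 megakaryocyte markers were all lower at 65 weeks in both sexes, from 1510 to 2548 CPM at 2 weeks to 118 to 327 CPM. Of 7 mast cell and basophil markers 6 were tested and 2, Hdc and Fcer1a, were higher in each sex. The 7 summed to 39.5 to 68.6 CPM at 2 weeks and 116 to 230 CPM at 65 weeks. Fcer1a passed the filter through its 65-week libraries alone, so a higher 65-week level was built into its being tested. The 6 macrophage markers were all higher in both sexes and 7 of 8 neutrophil markers in females and 8 of 8 in males. With male 65-week replicate 3 left out, 5 of the 6 macrophage markers were higher in males. The part of each cell type in the levels of the factors was not tested.

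The same genes were then compared between the sexes. At 2 weeks none of the 10 factors differed between male and female BECs (edgeR), where 0.0332% of the 15081 genes tested differed. DESeq2 called none of them either, and 3.18% of the genes it tested. Only Bcl6b and Sox7 were under an unadjusted p of 0.05, as were 17.8% of all genes. Bcl6b was higher in males by 0.31 on the log2 scale (95% interval 0.05 to 0.57, adjusted p = 0.249) and Sox7 by 0.34 (95% interval 0.01 to 0.66, adjusted p = 0.274). No factor had groups that did not overlap, while 21.7% of all genes did. The widest interval was that of Sox17, from -0.12 to 0.96, and the interval of Fli1 ran from -0.18 to 0.23.

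At 65 weeks 8 of the factors could be tested, since Sox7 and Sox17 had too few counts, and none differed between the sexes (edgeR). Of the 14287 genes tested 0.042% did. DESeq2 called no factor and 2.84% of its genes. None was under an unadjusted p of 0.05, beside 10.4% of all genes, and none had groups apart, beside 15.5%. The interval of Mef2c, male over female, ran from -1.20 to 0.41, which does not leave out a 2-fold lower level in males, and that of Bcl6b from -0.97 to 0.91, just within 2-fold in either direction.

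The spread was set for Mef2c by male replicate 3. Without it the male values of 46.2 and 41.1 CPM lay below all 3 female values, and the log2 fold change was -1.02 (SE 0.128, 95% interval -1.31 to -0.72, 2.02-fold lower, adjusted p = 0.00785). The call held in each of 9 alternative settings. It was the only one of the 8 factors called, where 5.65% of genes were. Ets1 was at -0.42 (SE 0.111, 95% interval -0.68 to -0.17, adjusted p = 0.0686) and passed with DESeq2 (adjusted p = 0.0105) and with no filter on low counts (adjusted p = 0.0297). Mef2c and Ets1 were the 2 factors under an unadjusted p of 0.05, beside 22.4% of all genes. Mef2c, Ets1 and Fli1 had groups that did not overlap, beside 40.5% of all genes.

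**Figure D4:**
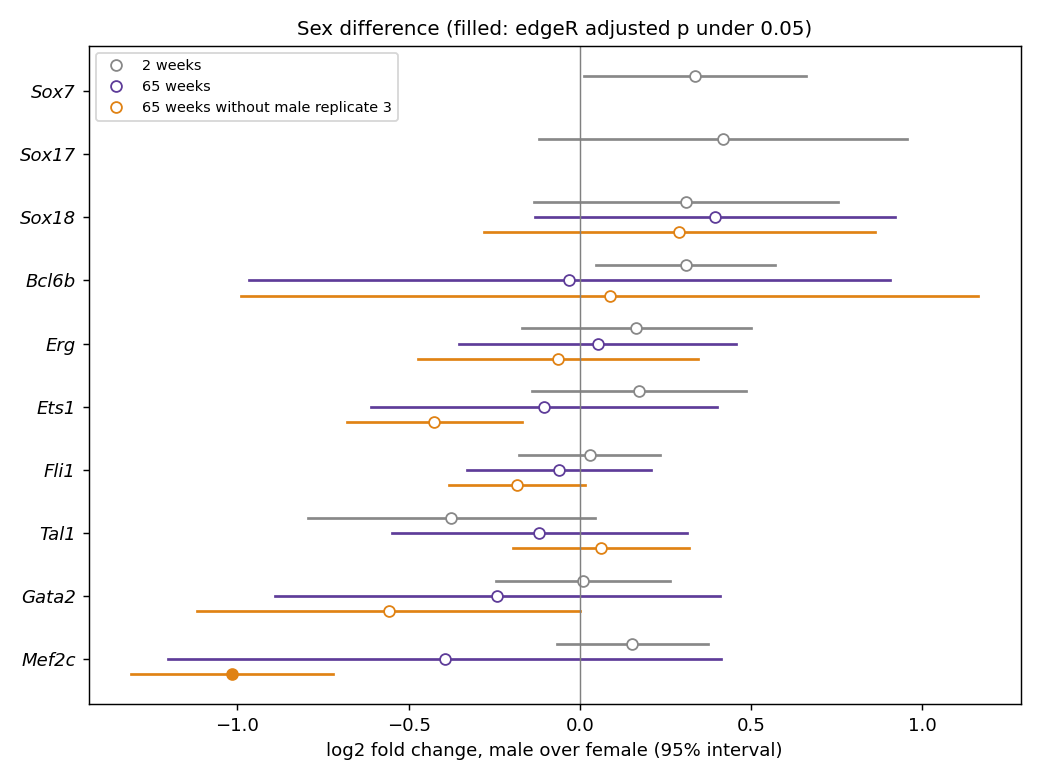
Log2 fold change of each transcription factor, male over female, at 2 weeks, at 65 weeks and at 65 weeks without male replicate 3, with 95% intervals from edgeR; filled points passed an adjusted p of 0.05. Only Mef2c without male replicate 3 is filled, at -1.02, and Sox7 and Sox17 were not tested at 65 weeks.

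Markers of B cells, in which Mef2c and Ets1 are also active, moved with this result. The B cell sum was 491, 378 and 1508 CPM in M.65weeks replicates 1, 2 and 3 and 1204, 854 and 859 CPM in F.65weeks, and the highest value of Mef2c was in the library with the highest sum. With all libraries none of the 8 B cell markers differed between the sexes at 65 weeks, and 5 of 8 were lower in males without male replicate 3. The sum of 8 T and NK cell markers was 48.8, 68.6 and 107 CPM in the 3 male libraries and 70.4 to 88.3 CPM in females. Neutrophil markers went the other way, at 24616, 24782 and 16622 CPM in males and 11419 to 15052 CPM in females. The part of these cells in the difference of Mef2c or Ets1 was not tested.

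**Figure D5:**
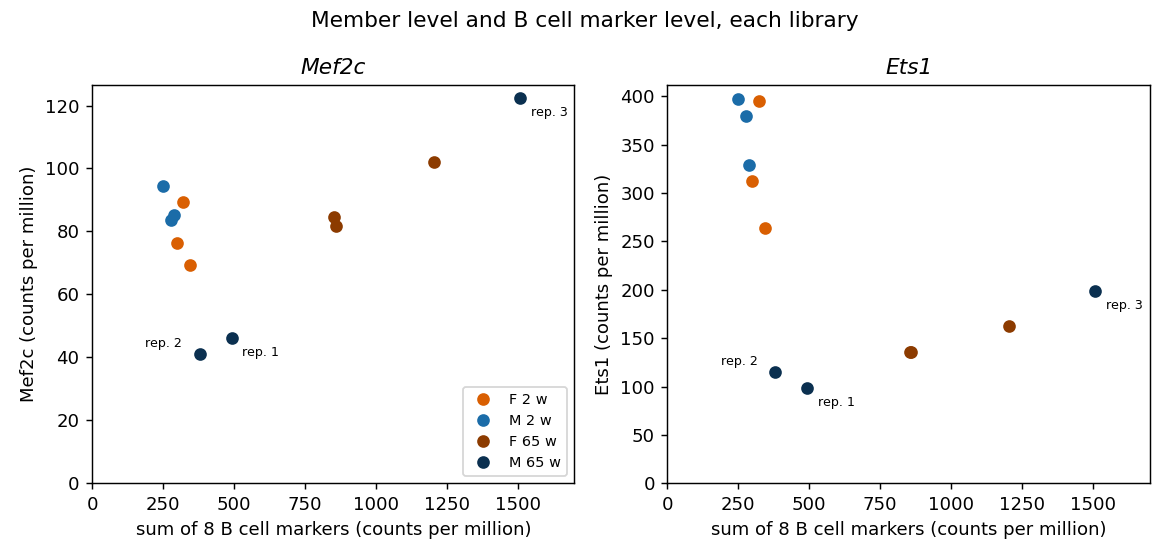
Mef2c and Ets1 in CPM against the summed level of 8 B cell markers in CPM, for each of the 12 libraries, with the male 65-week replicates marked. Among the 65-week libraries male replicate 3 has the highest B cell sum (1508 CPM) and the highest level of both genes (122 CPM for Mef2c and 199 CPM for Ets1). The 2-week libraries have low B cell sums with Ets1 above 260 CPM and Mef2c at 69.2 to 94.6 CPM. In both genes they lie above male 65-week replicates 1 and 2.

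Whether age acted differently in males and females was asked with an interaction term over all 12 libraries. None of the 10 factors passed with edgeR, where 0.00635% of the 15747 genes did, or with DESeq2, where 2.32% did. None was under an unadjusted p of 0.05, beside 11.9% of all genes. The estimate for Mef2c was -0.57 (95% interval -1.49 to 0.36, adjusted p = 0.621), and that for Sox18 was 0.07 (95% interval -0.61 to 0.75). Without male 65-week replicate 3 Mef2c passed, at -1.17 (SE 0.167, 95% interval -1.53 to -0.80, adjusted p = 0.00961), as did 4.66% of genes.

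Relatives of the factors were followed in lists written for this purpose. As background to the counts in these lists, 30.2% of all genes tested were higher and 29.5% lower at 65 weeks in females. In males 4041 of the 14959 genes tested were higher and 28.5% were lower. Of 23 other ETS genes 18 were tested in each sex. At 65 weeks 9 were higher and 6 lower in females (median log2 fold change 0.21) and 5 were higher and 6 lower in males (median -0.06). Etv4, among the lower genes, passed the filter through its 2-week libraries alone in both sexes. Spi1, the ETS factor of myeloid and B cells, was 110 ± 4.11 CPM in F.2weeks and rose to 236 ± 33.0 CPM in F.65weeks, and was 96.6 ± 2.62 CPM in M.2weeks and rose to 239 ± 17.3 CPM in M.65weeks (SD, n = 3; adjusted p = 5.13e-05 and 1.46e-05). Ehf, an epithelial ETS factor, was 0.385 CPM at 2 weeks and 6.11 CPM at 65 weeks in females and 0.371 and 4.15 CPM in males, and passed the filter through its 65-week libraries alone. Elk3, an ETS repressor of vessels, was 199 ± 47.3 CPM in young and 42.4 ± 6.36 CPM in old females, and 237 ± 31.1 CPM in young and 34.0 ± 11.7 CPM in old males (adjusted p = 3.20e-05 and 4.46e-05). Ets2, the closest relative of Ets1, dropped in females (151 ± 31.0 CPM at 2 weeks, 40.5 ± 1.25 CPM at 65 weeks) and in males (185 ± 19.6 and 41.3 ± 0.966 CPM), a log2 fold change of -1.76 in females and -2.05 in males.

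Of 16 other Sox genes 8 were tested in each sex. In females 6 were lower and 2 higher, and in males 5 were lower and 2 higher (median log2 fold change -1.62 and -1.79), but Sox8, Sox9 and Sox11 passed the filter through their 2-week libraries alone. Sox13, of the SoxD group, fell in females (13.2 CPM at 2 weeks, 2.45 CPM at 65 weeks) and in males (14.9 and 3.50 CPM). Sox4, of the SoxC group, likewise fell in females (63.3 and 25.9 CPM) and in males (71.2 and 17.2 CPM). Sox6, which is used in erythroid cells, rose in females (151 and 233 CPM) and in males (115 and 216 CPM), with adjusted p = 0.00627 and 0.00727.

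Close relatives of Tal1, Gata2, Bcl6b and Mef2c gave 3 higher and none lower of 6 tested in females and 3 higher and 1 lower of 8 in males. Tal2, among those higher in males, passed the filter through its 65-week libraries alone, so that rise was built in. Bcl6, the repressor related to Bcl6b that acts in germinal centre B cells, rose in females (17.1 ± 1.59 CPM at 2 weeks, 84.1 ± 12.9 CPM at 65 weeks) and in males (13.0 ± 1.41 and 55.1 ± 7.71 CPM), a log2 fold change of 2.43 (adjusted p = 5.30e-06) and 2.20 (adjusted p = 8.50e-06), where Bcl6b fell. Lyl1, the paralogue of Tal1, rose by a log2 fold change of 0.44 in females and 0.67 in males. Of 7 genes whose products bind with Tal1, 2 were higher and 2 lower in females and 1 was higher and 1 lower in males. Lmo2, the bridging subunit of the complex, rose (log2 fold change 0.68 in females and 0.84 in males), and Tcf12, a partner of Tal1 on DNA, fell (-0.40 and -0.55).

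Of 22 other transcription factors of endothelium 20 were tested in each sex, with 6 higher and 10 lower in females and 3 higher and 11 lower in males (median log2 fold change -1.03 and -1.75). Of the lower genes, 4 in each sex passed the filter through their 2-week libraries alone. These were Foxc2, Hey2, Meox1 and Meox2 in females and Foxc2, Hey2, Meox2 and Prox1 in males. Elk3, Ets2, Lmo2 and Lyl1 were also counted in the lists above. Foxc2, which acts in lymphatic valves, had a log2 fold change of -4.81 in females and -4.45 in males, from 2 to 15 counts a library at 65 weeks. It passed the filter in both sexes through its 2-week libraries alone, as did Meox1, a homeobox factor, in females (log2 fold change -3.67, and -4.14 in males), so for these too a lower 65-week level was built in. Klf2, a factor induced by flow in endothelium that is also active in lymphocytes, rose in females (53.0 ± 4.95 CPM at 2 weeks, 152 ± 16.1 CPM at 65 weeks) and in males (50.3 ± 7.55 and 120 ± 52.5 CPM; adjusted p = 8.43e-06 and 0.00304).

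A list of 18 endothelial genes, taken as possible targets of ETS or SoxF factors, shares 10 genes with the endothelial markers. Binding sites in these genes were not examined. All 18 were lower at 65 weeks in both sexes, with a median log2 fold change of -4.26 in females and -4.53 in males. Cdh5, the junction cadherin, had log2 fold changes of -5.50 in females and -5.74 in males, and Aplnr, the apelin receptor, of -7.10 and -6.74. The smallest falls were those of Icam2, an adhesion molecule, at -1.29 in females, and of Vwf, the clotting factor of endothelium and platelets, at -2.17 in males.

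Genes whose pattern over the 12 libraries was most like that of each factor were found among 12520 genes by the root mean square difference of log2 CPM, each gene centred on its own mean. Sox18 was closest to Tspan9 (0.187) and Gja1 (0.205), and Bcl6b to Alpl (0.170), the alkaline phosphatase of osteoblasts, and Cdr2l (0.188). Sox17 was closest to Cspg4 (0.312) and Unc5b (0.361), and Sox7 to Adamts12 (0.403) and Peg3 (0.641), the poorest match. For Erg the closest were Slc25a4 (0.100) and Gpr180 (0.108), and for Ets1 Trim35 and Creld1 (0.112 each). Fli1 lay closest to Btk (0.0687), a kinase of B and myeloid cells, and Ywhag (0.0705). Tal1 lay closest to Plk1 (0.0701), a mitotic kinase, and Slc2a4 (0.0735), Gata2 to Phc1 (0.140) and Zfp507 (0.145), and Mef2c to Foxo1 (0.0844) and Prkce (0.110). Among the factors themselves the nearest pairs were Erg with Ets1 (0.267), Gata2 with Mef2c (0.308), Fli1 with Tal1 (0.336) and Sox18 with Bcl6b (0.394).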

How the data were processed

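Libraries had been prepared with a total RNA kit, although the label names polyadenylated RNA, and sequenced with paired reads of 100 nt; the label gives tibia, whereas the methods describe femurs and tibiae. The authors deposited whole-number counts per Ensembl gene, not normalised, with replicates kept apart. The submitters' processing notes name TopHat2, HTSeq and mm9, whereas the methods describe STAR on GRCm39 and featureCounts, and this was not resolved. The annotation release, use of strand and treatment of reads with several matches are not given in the sources used here.

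Names and positions came from GENCODE M39 (GRCm39), which held 31052 of the 37620 IDs and 99.3% of the counts (6568 IDs were not found). Of the listed genes, 1 (Sox1) had no match. The 10 factors and all lists were chosen with earlier results of these data known, and the marker lists came from general knowledge. In edgeR 4.0.16 (R 4.3.3) genes were kept by filterByExpr (minimum count 10), scaled by TMM and given a quasi-likelihood F test, with Benjamini-Hochberg adjustment over all genes tested and a threshold of 0.05; standard errors come from the F statistic. CPM were computed from library totals and RPKM from the summed exon length, and ratios to markers used an offset of 0.5 counts. No library was a repeat of another (chi-square of counts over degrees of freedom from 26.6 to 102.5 between replicates). A count of 0 was taken to allow 3 counts, which covers counting error only.

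Genes named beside the factors were, from each list of transcription factors, up to 2 with the largest rise and 2 with the largest fall among those called in both sexes (average log2 CPM 1 or more), and the 2 most alike genes of each factor. The receptors, junction genes and markers named were chosen after their values were seen. Alternatives were DESeq2 1.42.0, other scalings and filters, a threshold of 0.01, thinning to the smallest library, a replicate block, 1 model of all 12 libraries and the removal of each library, which for the ratios to markers was added after the data were seen. The scripts were tested on simulated counts.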

Additional observations from a re-analysis of the deposited data

How the results depend on the processing

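Sox18, Bcl6b, Erg and Ets1 kept their call of lower at 65 weeks in all 15 alternatives in each sex; Sox7 and Sox17 did too, but they were tested only through their 2-week libraries, so this says nothing of stability. The number of factors called with age was 7 or 8 in females and 6 to 9 in males. At 65 weeks 1 factor differed between the sexes without male replicate 3 and none with it, and the interaction had 1 and 0. Without that library 2 factors were called with DESeq2 or with no filter on low counts. Directions that turned belonged to factors that had not passed the test. Tal1 in females was -0.0324 with library totals and -0.0689 to 0.21 when each library was left out. Gata2 with age in females was -0.27 to 0.00159 and Mef2c in males -0.88 to 0.0187. Between sexes at 2 weeks, Gata2 was -0.000495 with DESeq2 size factors, -0.00156 with at least 1 CPM in 3 libraries and -0.00540 on thinned counts; leaving out each library it was -0.0671 to 0.11 and Fli1 -0.0153 to 0.0954. At 65 weeks the ranges were -0.0635 to 0.23 for Erg, -0.18 to 0.0169 for Fli1, -0.42 to 0.0840 for Ets1, -0.28 to 0.0623 for Tal1, -0.56 to 0.0299 for Gata2 and -0.47 to 0.22 for Bcl6b. In the interaction they were -0.47 to 1.09 for Sox17, -0.17 to 0.24 for Sox18 and -0.31 to 0.0378 for Erg. The cause was not tested.

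Same-numbered libraries of different groups correlated at -0.64 to 0.32 over 9649 genes. Libraries with different numbers were not set beside them, so this cannot tell whether replicate numbers pair the libraries. With the replicate block the factors called were 8 and 6 with age and 0 at each sex comparison and in the interaction, so no such count changed, and 1 without male 65-week replicate 3; Sox17 in the interaction was 0.0260, and Tal1 between sexes at 65 weeks without that library was -0.0107. Over all genes, calls between the sexes at 2 weeks (5) were 417 with DESeq2, 8 with all 12 libraries and up to 11 without a library. At 65 weeks (6) they were 10 with library totals, 363 with DESeq2, 105 with no filter, 254 with all 12 libraries and up to 830 without a library. In the interaction (1) they were 353 with DESeq2, 7 with no filter, 0 with the block, on thinned counts or at the threshold of 0.01, and 0 to 750 without a library. At 65 weeks without male replicate 3 (830) they were 1631 with DESeq2, 1436 with no filter, 486 with the block, 1741 with all libraries in 1 model and 116 at the threshold of 0.01. Depth limits Sox7 and Sox17 at 65 weeks, with 0 to 23 counts a library.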
